A study of Mus musculus with 9 samples.

Results

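The 46 genes described here encode proteins that carry a cell through G2 phase and mitosis. They were chosen by gene symbol, and all 46 were found among the 24186 genes of the deposited count table, each under 1 gene identifier. Their mRNA was measured by poly(A) RNA sequencing in bone marrow stromal cells, the fibroblast-like cells of the marrow from which bone and fat cells arise. The cells came from the femora and tibiae of adult C57Bl/6 mice carrying the irtTA-GBD*-TAg transgene, with which dexamethasone and doxycycline together switch on large T-antigen, a viral protein that drives cell division. Cells grown with both drugs were cloned, and before RNA was taken every culture, in all groups, spent 3 days without either drug. The 3 groups were adipogenic progenitors without interferon (untreated), the same kind of progenitor given interferon gamma (IFNγ) at 10 ng/ml for 3 days, and osteogenic progenitors without interferon. Each group had 3 libraries, with replicate numbers 4, 5 and 6 in the labels. The design text calls them biological replicates. The labels do not say whether a number stands for a clone, a culture or a mouse. The p-values below therefore measure the spread between these samples, which may be technical in part. The cell lines are clonal and carry an inducible oncogene, and the spread among 3 libraries does not stand for that among mice.

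Libraries held between 27440089 and 39251602 counts, and the 46 genes together took 0.0617% to 0.242% of them. The lowest count of any member was 70, against a detection floor of 3 counts (0.0764 to 0.109 CPM, which are counts scaled by the library's total), so all 46 were well above detection in every library, and all 46 passed the filter on low counts in every comparison. Stromal markers were present: 8 of 10 were above a group mean of 1 CPM in each group (Thy1 and Lepr were not), with a summed level of 12778 to 21690 CPM in untreated, 6712 to 7394 in IFNγ-treated and 51579 to 73775 in osteogenic libraries. Of the 7 blood and macrophage markers, Ptprc, Itgam, Csf1r and Laptm5 lay under 1 CPM. The other 3, Cd68, Lyz2 and Cd14, were above a group mean of 1 CPM in untreated and in osteogenic cells. In IFNγ-treated cells 2 of the 7 were above it. The list summed to at most 30.5 CPM in any library. Endothelial markers summed to at most 54.4 CPM, almost all of it Kdr, with Emcn at 0 counts. The stromal, blood and endothelial sums thus differed between groups, and their part in the results below was not tested.

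Entry into mitosis is driven by cyclins A and B bound to the kinase CDK1, which is held inactive until CDC25 phosphatases release it. Aurora and Polo-like kinases then build the spindle, kinetochores attach chromosomes to it, and a checkpoint delays the anaphase-promoting complex until all are attached. That complex, with its activator CDC20, marks securin and cyclin B for destruction, and chromatids separate. Most of these genes are transcribed late in the cell cycle and are low in resting cells. The DREAM complex, built on the MuvB proteins, represses them in resting cells, and MuvB with B-MYB and FOXM1 activates them in G2. MuvB contacts a short element near the start site called CHR, often next to CCAAT boxes, which bind NF-Y. IFNγ acts on many of its target genes through a DNA element called the gamma-activated site, and is best known as a brake on cell growth in many cell types. In bulk RNA, more cells in G2 and mitosis and more mRNA per such cell cannot be told apart.

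Promoter sequence is shown first, because the members were chosen from genes transcribed late in the cell cycle, many of which are known to carry these elements. The motif shares below are therefore not independent of that choice. Whether the motifs bear on the change with IFNγ was not tested. The RefSeq promoter table (build GRCm38.p6, 250 bases before to 50 after each gene's start) held a window for 38 of the 46 members; Kif20a, Tpx2, Incenp, Cdc25c, Foxm1, Spc24, Ccna2 and Aurkb had none in it. Below are the 150 bases just upstream of the start, written 5′ to 3′ on the gene's own strand. Capitals mark the CHR element (TTTGAA or its reverse complement TTCAAA) and the CCAAT box (CCAAT or ATTGG). The first 5 belong to genes with different mitotic roles that were higher with IFNγ: Cdk1 (chr10:69352913-69353062, minus strand), Mki67 (chr7:135716380-135716529, minus strand), Top2a (chr11:99024190-99024339, minus strand), Kif11 (chr19:37376232-37376381, plus strand) and Espl1 (chr15:102296143-102296292, plus strand).
Cdk1: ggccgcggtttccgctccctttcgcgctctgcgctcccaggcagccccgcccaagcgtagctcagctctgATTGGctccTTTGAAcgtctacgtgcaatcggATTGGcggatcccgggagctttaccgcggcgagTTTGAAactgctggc
Mki67: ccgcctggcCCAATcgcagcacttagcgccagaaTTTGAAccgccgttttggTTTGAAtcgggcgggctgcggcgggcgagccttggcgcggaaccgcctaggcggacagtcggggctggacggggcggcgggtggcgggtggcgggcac
Top2a: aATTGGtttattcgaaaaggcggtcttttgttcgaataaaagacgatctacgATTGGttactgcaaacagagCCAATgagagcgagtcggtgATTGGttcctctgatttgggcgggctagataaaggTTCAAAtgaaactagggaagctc
Kif11: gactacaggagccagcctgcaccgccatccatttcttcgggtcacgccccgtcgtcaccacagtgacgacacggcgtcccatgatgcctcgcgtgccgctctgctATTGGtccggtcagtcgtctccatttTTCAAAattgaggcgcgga
Espl1: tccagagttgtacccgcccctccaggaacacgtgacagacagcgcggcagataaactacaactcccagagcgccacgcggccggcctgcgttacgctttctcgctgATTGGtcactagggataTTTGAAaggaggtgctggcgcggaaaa

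These stretches hold 2, 2, 1, 1 and 1 CHR matches and 2, 1, 4, 1 and 1 CCAAT matches, in that order. The next 4 belong to anaphase genes that behaved differently from each other. Ube2c (chr2:164769779-164769928, plus strand) was higher with IFNγ. Cdca5 (chr19:6084947-6085096, plus strand) was higher with IFNγ and lower in osteogenic than in IFNγ-treated cells, a call that did not hold in every fit. Cdc20 (chr4:118437344-118437493, minus strand) and Pttg1 (chr11:43425982-43426131, minus strand) did not pass the test with IFNγ.
Ube2c: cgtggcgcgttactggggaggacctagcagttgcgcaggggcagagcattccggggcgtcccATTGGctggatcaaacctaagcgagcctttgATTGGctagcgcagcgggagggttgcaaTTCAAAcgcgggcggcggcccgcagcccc
Cdca5: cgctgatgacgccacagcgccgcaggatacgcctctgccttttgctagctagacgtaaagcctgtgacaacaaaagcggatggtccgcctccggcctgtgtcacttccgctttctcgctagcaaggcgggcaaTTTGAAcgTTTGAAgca
Cdc20: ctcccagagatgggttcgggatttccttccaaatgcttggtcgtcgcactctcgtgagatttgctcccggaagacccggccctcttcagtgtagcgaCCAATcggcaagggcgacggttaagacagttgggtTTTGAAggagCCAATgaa
Pttg1: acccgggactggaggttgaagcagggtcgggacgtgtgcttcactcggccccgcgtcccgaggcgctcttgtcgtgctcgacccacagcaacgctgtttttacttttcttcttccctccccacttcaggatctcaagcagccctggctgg

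Ube2c has 1 CHR and 2 CCAAT matches here, Cdca5 has 2 and 0, Cdc20 has 1 and 2, and Pttg1 has 0 of either.

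Over the whole 300-base windows, searched on both strands, 27 of the 38 members (71.1%) held TTTGAA, against 20.2% of all 27025 genes with a window and 14.0% of the 9316 of them that were tested with IFNγ. CCAAT was present in 28 members (73.7%), against 41.1% of all genes and 43.2% of tested genes, and 21 members (55.3%) had it at least 2 times. Both motifs stood in 23 members (60.5%), against 8.97% of all genes and 6.93% of tested genes. In 25 members (65.8%) a CHR match lay within 50 bases of the start, on either side, against 3.91% of tested genes. That distance was chosen after the positions were seen. In some members the only CHR match lay after the start, as in Aurka, Plk1 and Cenpf (from bases 33, 31 and 3). The upstream stretches printed above are from picked genes, and all but that of Pttg1 hold a CHR match. They do not stand for all members. The gamma-activated site TTCNNNGAA was found in 0 of the 38 windows, against 9.55% of all genes and 8.29% of tested genes. TTTGAA and TTCNNNGAA can overlap in their last 3 letters. Birc5, Mad2l1, Melk, Nuf2, Nusap1 and Pttg1 had neither CHR nor CCAAT in the window. Among the 4 members that did not pass the test with IFNγ, Cdc20, Kif18b and Spc25 each had 1 CHR and 2 CCAAT matches. A match is a string of letters and not a shown binding site, and a window without a match says only that these letters are not in it.

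**Figure D1:**
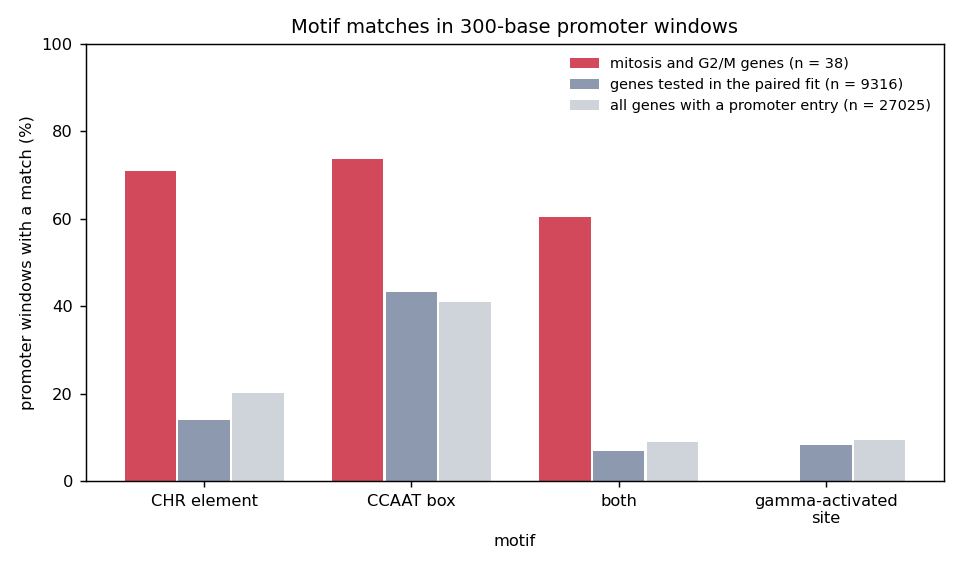
Share of 300-base promoter windows (vertical axis, %) with at least 1 match to each motif, for the 38 mitosis and G2/M genes with a RefSeq window, for the 9316 tested genes with one and for all 27025 genes. CHR and CCAAT stood together in 60.5% of the mitosis windows against 6.93% of tested genes, and the gamma-activated site was found in 0 of 38.

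The first comparison asked what 3 days of IFNγ did to adipogenic progenitors. Mitosis genes were higher across every functional class: 42 of the 46 rose and 0 fell (edgeR quasi-likelihood test, replicate number as a block, adjusted p under 0.05), while 8.61% of all 14705 genes tested rose and 8.02% fell. The median change of the 46 was 1.28 on the log2 scale, 2.43-fold, against -0.03 for all genes. Top2a, topoisomerase II alpha, and Cenpf, a kinetochore protein, changed most, both by 1.80 on the log2 scale. Pttg1, which encodes securin, was the only member with a fitted change below 0.

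These calls rest on the pairing of libraries by replicate number. Deviations from the group means over 15098 genes correlated at 0.786 to 0.797 between untreated and treated libraries of one number. Between different numbers the correlations were -0.463 to -0.292. For each gene the deviations within a group cancel out, so positive values for same-numbered libraries force the others to be negative on average. The negative values are therefore no separate support for the pairing. Without that pairing the median change was about as large (1.27 on the log2 scale over all 9 libraries), but 1 member, Ect2 (adjusted p = 0.0497), passed edgeR's test, where 2.01% of all genes rose and 0.245% fell. At an unadjusted p under 0.05, 37 members were higher and 0 lower, beside 8.95% and 5.35% of all genes. Pair 6 mattered most: without its untreated library 4 members passed, and without its treated library 1 did, against 40 to 43 without any other library. Calls over all genes fell from 2446 to 362 and 251 with these left out, and to between 1427 and 1585 without any other library. Each of the 6 fits has 1 residual degree of freedom, and the cause of the difference was not tested.

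**Figure D2:**
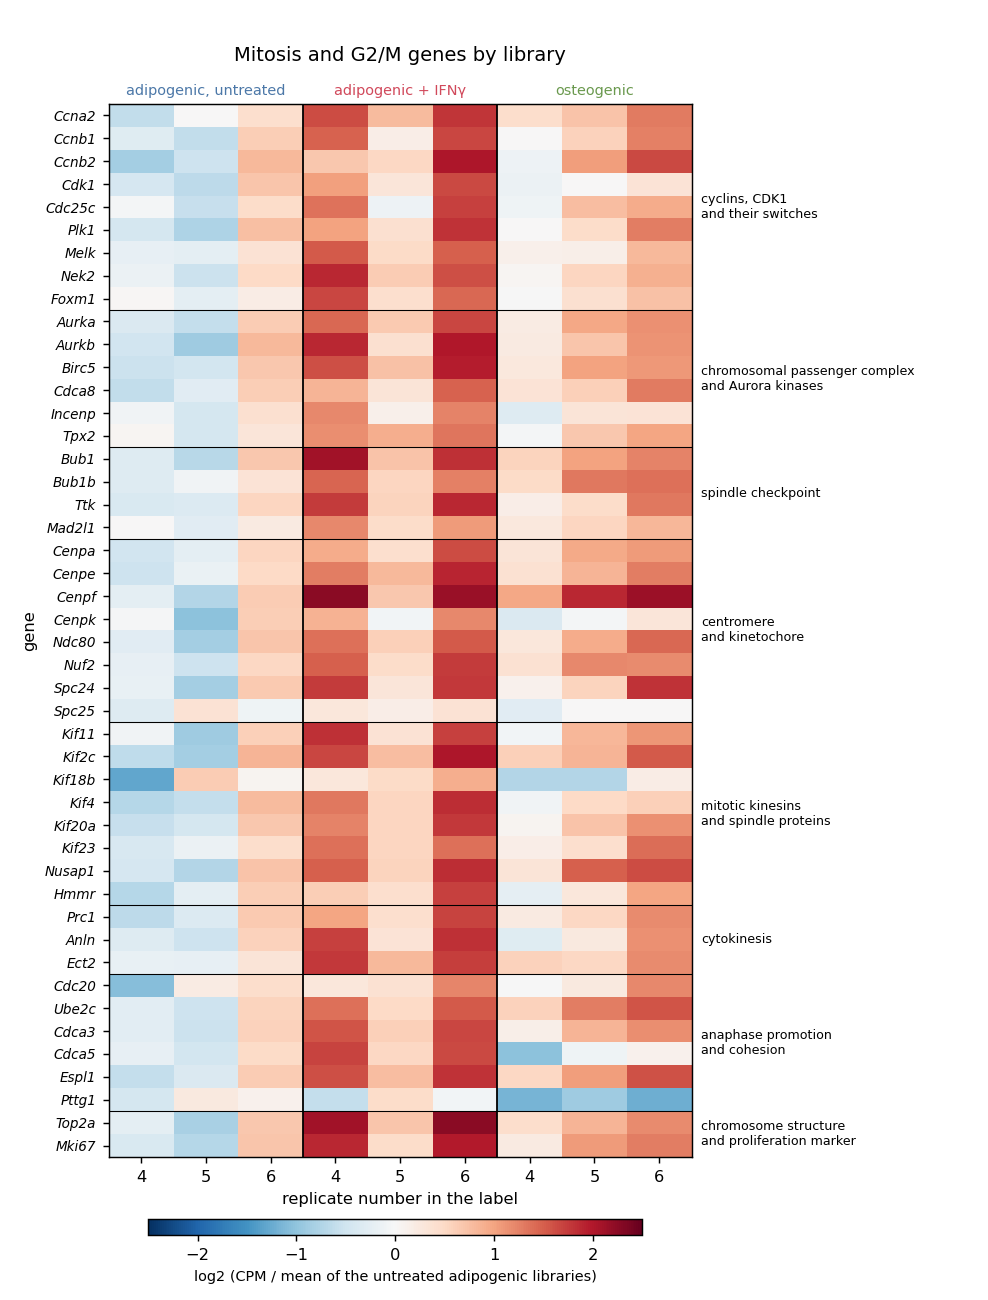
Level of each of the 46 genes (rows, grouped by role) in each of the 9 libraries (columns, by group and replicate number), as the log2 ratio of CPM to the mean of the 3 untreated adipogenic libraries (colour). IFNγ-treated replicates 4 and 6 are the most intensely red columns; Pttg1 stays near the untreated colour with IFNγ and is blue in all 3 osteogenic libraries.

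The amount of the change differed between pairs. The summed level of the 46 genes was 609, 611 and 1115 CPM in untreated replicates 4, 5 and 6, and 2048, 1116 and 2422 CPM in the treated ones. Treated replicate 5 therefore stood at the level of untreated replicate 6. Within pairs the sum was 3.36, 1.83 and 2.17 times as high with IFNγ. By gene, 45 members were higher in pair 4 (median 3.45-fold), 44 in pair 5 (1.96-fold) and 45 in pair 6 (2.15-fold), while 50.2%, 45.5% and 49.9% of all genes were higher. In all 3 pairs 43 of 46 members were higher, against 27.4% of all genes. Pair 4 had the largest ratio for 43 members. Before treatment, replicate 6 had the highest level for 43 members. The 3 treated libraries lay above all 3 untreated ones for 19 members (10.4% of all genes), below all of them for 0 (7.11%), and overlapped with them for 27.

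**Figure D3:**
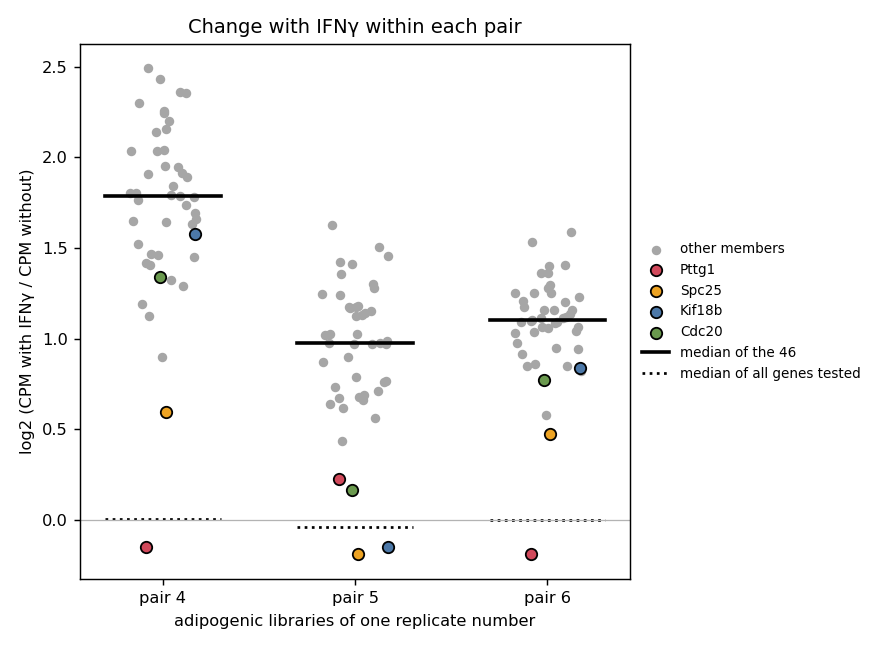
Change with IFNγ within each pair of adipogenic libraries (horizontal axis: replicate number), as the log2 ratio of CPM with to CPM without IFNγ, for each of the 46 genes (points), with their median (solid line) and the median of all genes tested (dotted line). Medians were 1.78, 0.97 and 1.10 in pairs 4, 5 and 6, and Pttg1, Spc25, Kif18b and Cdc20, coloured, lie below the median in each pair.

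Mitochondrial genes took 0.930% to 1.38% of counts in untreated and 0.660% to 0.706% in treated libraries, and whether that bears on the mitosis genes was not tested. Exons of 11 members overlap those of another protein-coding gene in the GENCODE M21 annotation (Ccna2, Cdc20, Cdc25c, Cdca8, Cenpk, Foxm1, Kif20a, Kif4, Nusap1, Prc1 and Ube2c). The strand setting of the counting is not given in the sources used here, so part of these levels may belong to the neighbour.

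All 9 cyclins, kinases and switches of mitotic entry rose, by a median of 1.19 on the log2 scale. Ccna2, cyclin A2, which acts from S phase into mitosis, was measured at 12.8, 19.6 and 26.1 CPM in untreated replicates 4, 5 and 6 and at 60.5, 33.9 and 67.1 CPM with IFNγ. Every treated library was above every untreated one, and the change was 1.45 ± 0.28 (log2, SE, adjusted p = 0.0308). Ccnb1, cyclin B1, the partner that activates CDK1 at mitotic entry, had 7.04, 5.72 and 13.4 CPM untreated and 24.2, 9.73 and 27.9 CPM treated. Here treated replicate 5 fell below untreated replicate 6, though each pair moved up (1.19 ± 0.21, adjusted p = 0.0213).

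Cdk1 itself, the kinase of mitotic entry, stood at 27.4, 23.3 and 59.9 CPM untreated and 74.9, 45.5 and 115 CPM treated, a change of 1.11 ± 0.12 (adjusted p = 0.00752). The groups overlapped through replicates 5 and 6 again. Cdc25c, the phosphatase that removes inhibitory phosphates from CDK1, had the lowest mean of this class per kilobase of exon in untreated cells (1.72 CPM per kb) and stood at 3.21, 2.25 and 4.57 CPM untreated and 8.51, 3.05 and 10.9 CPM treated (1.04 ± 0.23, adjusted p = 0.0385). Its pair 5 ratio of 1.35 was the smallest among the cyclins and switches. Plk1, Polo-like kinase 1, which matures centrosomes and promotes entry, had 8.28, 6.63 and 19.0 CPM untreated and 22.8, 14.9 and 39.8 CPM treated, with like ratios in the 3 pairs of 2.75, 2.25 and 2.09.

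Foxm1, the transcription factor that activates G2/M genes, was at 21.7, 17.9 and 24.3 CPM untreated and 67.7, 28.6 and 57.8 CPM with IFNγ. Its libraries did not overlap, and it rose by 1.18 ± 0.19 (adjusted p = 0.0182). Ccnb2 (cyclin B2), Melk (a kinase of proliferating cells) and Nek2 (a kinase of centrosome separation) rose by 1.23, 1.18 and 1.43 on the log2 scale.

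The chromosomal passenger complex, which corrects faulty chromosome attachments and guides cytokinesis, rose as a whole with the Aurora kinases, 6 of 6 genes, by a median of 1.25. Aurkb, its kinase, was at 5.94, 4.47 and 14.4 CPM untreated and 30.6, 11 and 33.2 CPM treated. The untreated library of replicate 6 exceeded the treated library of replicate 5, and the ratios within pairs were 5.14, 2.46 and 2.30. Birc5, survivin, which anchors the complex, went from 7.49, 7.97 and 17.3 CPM to 33.5, 18.1 and 42.6 CPM, without overlap (1.53 ± 0.21, adjusted p = 0.012). Cdca8 (borealin) and Incenp (the scaffold) rose less, by 0.96 and 0.89.

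Aurka, the Aurora kinase of spindle poles, stood at 7.63, 6.55 and 15.4 CPM untreated and 26.6, 15.5 and 31.5 CPM treated. The lowest treated library was just above the highest untreated one. Its activator Tpx2, which also nucleates microtubules, was at 46.9, 33.5 and 56.2 CPM untreated and 102, 85.6 and 116 CPM treated. Tpx2 had ratios close to each other, 2.18, 2.56 and 2.05, and the smallest adjusted p of the 46 members (0.00418, change 1.16 ± 0.10).

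All 4 spindle checkpoint genes rose, by a median of 1.27. Bub1, a kinase that recruits checkpoint proteins to kinetochores, was at 5.15, 3.98 and 10.2 CPM untreated and 27.8, 10.6 and 22.8 CPM treated, a change of 1.65 ± 0.26 (adjusted p = 0.0188). Its ratio in pair 4, 5.39, was more than that in pairs 5 and 6 (2.66 and 2.23). Mad2l1, MAD2, which holds CDC20 back until chromosomes are attached, moved least of the 4, from 15.8, 12.9 and 18.3 CPM to 36.1, 21.4 and 32.9 CPM (0.91 ± 0.12, adjusted p = 0.0108). The libraries of the groups did not overlap for any of the 4 genes, Bub1b (BUBR1) and Ttk (MPS1, the kinase that starts the checkpoint) included.

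Of 8 centromere and kinetochore genes, 7 rose, by a median of 1.29 over the 8. Cenpf, a large kinetochore protein that accumulates in G2, was at 8.03, 5.66 and 14.7 CPM untreated and 45.1, 15.2 and 42.4 CPM treated. Treated replicate 5 cleared untreated replicate 6 by little, and the change was 1.80 ± 0.23 (adjusted p = 0.0112). Cenpa, the histone H3 variant that marks centromeres, rose by 1.05 ± 0.16 (adjusted p = 0.0145), from 9.32, 11 and 18.8 CPM to 24.9, 17.5 and 40.2 CPM. Cenpe, a kinesin that moves chromosomes to the spindle middle, stood at 14.7, 18.7 and 29.6 CPM untreated and 50.7, 36.6 and 78.5 CPM treated.

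The NDC80 complex, which grips microtubule ends, has 4 subunits, and they did not change alike. Ndc80 was at 5.94, 3.98 and 11.7 CPM untreated and 18.8, 10.9 and 20.8 CPM treated (1.29 ± 0.19, adjusted p = 0.0139), and Nuf2 and Spc24 rose by 1.29 and 1.39. Spc25 did not pass: its levels were 16.5, 26.3 and 19.0 CPM untreated and 24.9, 23.1 and 26.4 CPM treated, a difference of 0.28 ± 0.17 (adjusted p = 0.316). It was lower with IFNγ in pair 5 (ratio 0.877) and higher in pairs 4 and 6. No test of Spc25 against its partners was made. Per kilobase of exon, Spc25 was also the most abundant of the 4 in untreated cells (6.47 CPM per kb, against 3.28 for Ndc80, 2.95 for Nuf2 and 2.66 for Spc24). With IFNγ the 4 means lay between 7.09 and 7.78 CPM per kb.

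Among 8 mitotic kinesins and spindle proteins, 7 rose, by a median of 1.33 over the 8. Kif11 (Eg5), the motor that pushes spindle poles apart, had 18.5, 10.6 and 29.5 CPM untreated and 69.6, 25.1 and 63.5 CPM treated (1.40 ± 0.17, adjusted p = 0.00938). Treated replicate 5 again lay below untreated replicate 6. Kif20a, a kinesin of late mitosis and cytokinesis, went from 17.1, 18.7 and 40.4 CPM to 59.8, 36.7 and 86.1 CPM. Kif2c (a microtubule depolymeriser), Kif4 (chromokinesin), Kif23 (of the central spindle), Nusap1 and Hmmr (spindle microtubule proteins) rose by 1.01 to 1.67 on the log2 scale. Kif18b, a motor that shortens astral microtubules, did not pass, with 7.46, 28.4 and 19.3 CPM untreated and 22.3, 25.6 and 34.4 CPM treated. Relative to its level, its untreated libraries spread more than those of Kif11 and Kif20a, and its difference was 0.73 ± 0.33 (adjusted p = 0.194).

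The 3 cytokinesis genes rose together, by a median of 1.37. Prc1, which bundles the central spindle, was at 17.0, 21.1 and 42 CPM untreated and 52.7, 35.8 and 86.6 CPM treated. Anln, anillin of the cleavage furrow, stood at 33.0, 28.6 and 61.7 CPM untreated and 135, 52.3 and 147 CPM treated (1.37 ± 0.23, adjusted p = 0.0213). For both, treated replicate 5 was lower than untreated replicate 6. Ect2, the exchange factor that activates RhoA at the furrow, was at 12.3, 12.1 and 17.6 CPM untreated and 47.6, 24.6 and 46.4 CPM treated (1.45 ± 0.18, adjusted p = 0.0103). Its 3 untreated libraries were close together and below every treated one.

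Of the 6 anaphase genes 4 rose, and 5 did in DESeq2. Ube2c, the ubiquitin-conjugating enzyme of the anaphase-promoting complex, was at 8.67, 7.29 and 15.4 CPM untreated and 27.2, 14.8 and 30.3 CPM treated (1.20 ± 0.16, adjusted p = 0.0112). Espl1, separase, the protease that cuts cohesin, went from 7.04, 8.28 and 16.6 CPM to 32.4, 18.2 and 37.0 CPM without overlap (1.47 ± 0.24, adjusted p = 0.0187). Cdca3, a mitotic entry factor, and Cdca5 (sororin), which protects cohesin, rose by 1.34 and 1.33. Cdc20, the activator of the complex, was at 11.9, 28.5 and 33.6 CPM untreated and 30.0, 32.0 and 57.4 CPM treated. It was higher in each pair, by 2.53, 1.12 and 1.71 times, but did not pass (0.74 ± 0.22, adjusted p = 0.0871).

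Pttg1, securin, the inhibitor of separase, had 26.7, 42.9 and 39.3 CPM untreated and 24.1, 50.2 and 34.4 CPM treated. Its ratios were 0.903, 1.17 and 0.876, so the pairs moved in different directions by little, and the fitted difference was -0.05 ± 0.12 (adjusted p = 0.798). Its sign turned in 4 of the 6 fits that left out a library. In untreated cells Pttg1 had the highest level per kilobase of the 46 (18.1 CPM per kb), ahead of Cdc20 (13.2) and Incenp (12.1). With IFNγ it stayed at 18.1, while Top2a reached 26 CPM per kb.

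Top2a, which untangles chromosomes before they separate, was at 55.5, 37.7 and 105 CPM untreated and 284, 107 and 317 CPM treated. The lowest treated library was barely above the highest untreated one, and the change was 1.80 ± 0.18 (adjusted p = 0.00681). Mki67, whose product Ki-67 coats mitotic chromosomes and serves as a marker of cycling cells, was at 23.8, 18.8 and 49.8 CPM untreated and 114, 42.3 and 121 CPM treated (1.55 ± 0.23, adjusted p = 0.0161). Its groups overlapped through treated replicate 5 and untreated replicate 6.

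**Figure D4:**
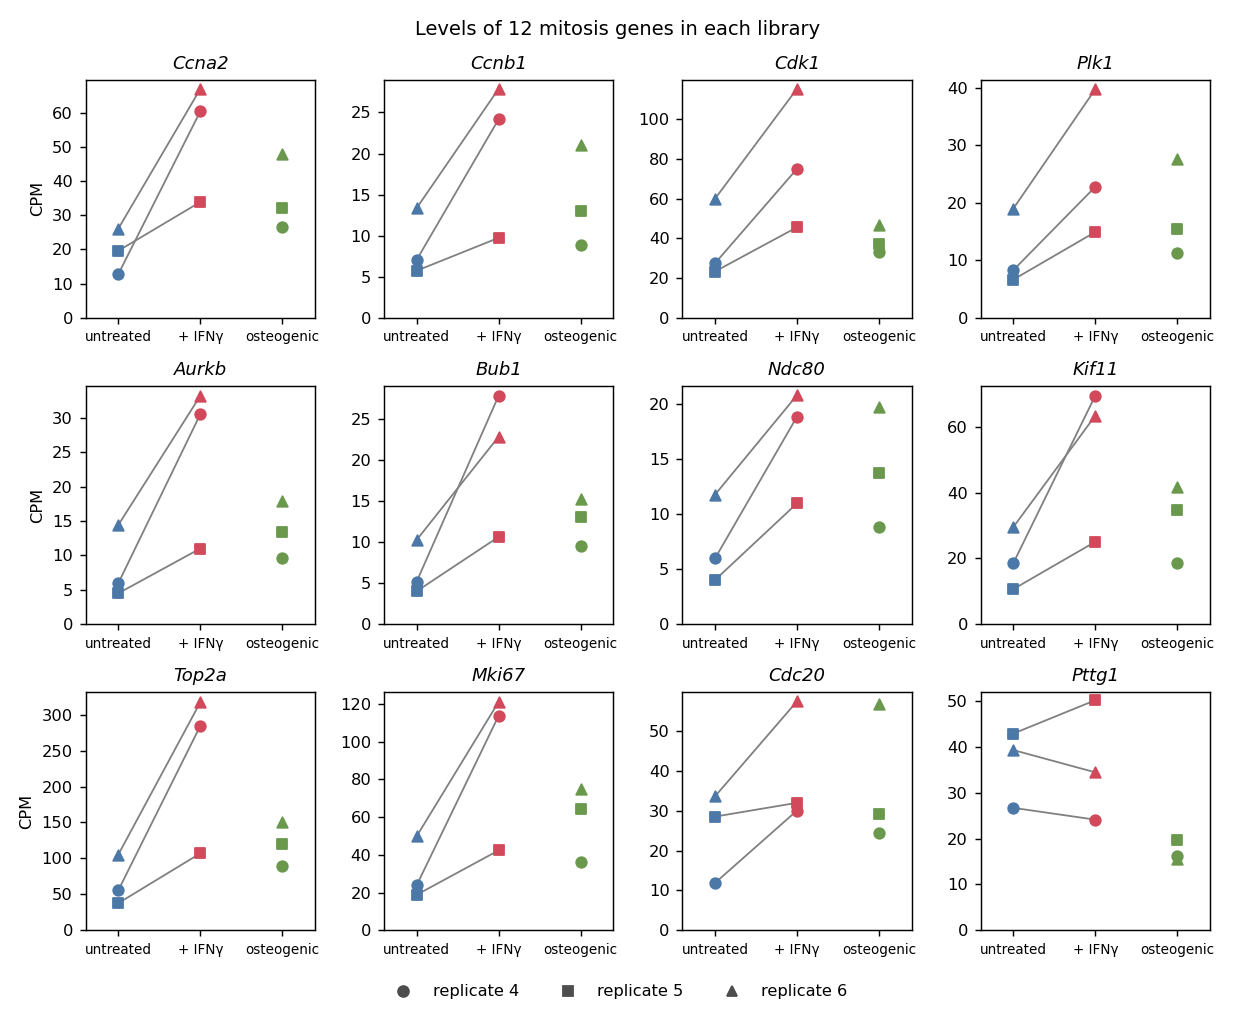
Levels (CPM, vertical axes from 0) of 12 genes in each library by group; symbols mark the replicate number and grey lines join untreated and IFNγ-treated adipogenic libraries of one number. Lines rise in all 3 pairs for every gene but Pttg1, whose osteogenic libraries (15.6 to 19.6 CPM) lie below all adipogenic ones.

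Of 71 other mitosis genes, outside the 46, 48 rose and 1, Gtse1, fell, and their median change was 0.82 on the log2 scale. Among all genes 8.61% rose and 8.02% fell. Gtse1, a microtubule protein of G2 that also acts on p53, was picked out because it was the exception. All 8 condensin genes, whose products compact mitotic chromosomes, rose (median 0.90), among them Ncapg by 1.53 (adjusted p = 0.00637) and Smc4 by 0.80 (0.00879). Of 30 further kinetochore and checkpoint genes 19 rose, Sgol1 (shugoshin, guardian of centromeric cohesion) by 1.25 and Kntc1 (of the checkpoint) by 1.43. Of 33 spindle, centrosome and cytokinesis genes 21 rose, including Plk4, the kinase of centriole duplication, by 1.10. None of the 71 passed in the unpaired edgeR fit over 9 libraries, where 2.01% of all genes rose and 0.245% fell. In that fit 41 of the 71 were higher at an unadjusted p under 0.05, as were 8.95% of all genes.

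S phase genes rose in 26 of 29 cases (median 0.85), while 8.61% of all genes rose and 8.02% fell. Cdc6, which loads the replicative helicase, rose by 1.46 (adjusted p = 0.0059), from 8.96, 3.67 and 12.4 CPM to 31.5, 9.14 and 30.1 CPM, and Cdc45 and Lig1 by 1.03 and 0.88. Of 10 G1 cyclins, CDKs and drivers tested, 6 rose. Cdk6, a kinase that works with D cyclins, had the largest change, from 5.49, 8.23 and 2.99 CPM to 27.4, 29.1 and 12.7 CPM, without overlap (2.06 ± 0.14, adjusted p = 0.00226). The 15 genes of the anaphase-promoting complex and its regulators had a median of -0.09. Of these 15, 1 rose and 1 fell, near the shares of all genes. Fbxo5 (EMI1), an inhibitor of the complex, rose by 1.53 (adjusted p = 0.00618), and the subunit Anapc2 fell by 0.37 (0.0376). Without the pairing, in edgeR over all 9 libraries, 2.01% of all genes rose and 0.245% fell. There 1 of the 29 S phase genes passed, as did 0 of the 10 G1 genes and 0 of the 15 of the anaphase-promoting complex. At an unadjusted p under 0.05 that fit had 17 S phase genes and 5 G1 genes, all higher, and 2 of the complex, 1 in each direction. By that measure 8.95% of all genes were higher and 5.35% lower.

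Of 23 genes of the E2F, Rb, MuvB and NF-Y factors that transcribe cell cycle genes, 6 rose and 1, Rb1, fell. The shares of all genes were 8.61% and 8.02%. Mybl2 (B-MYB), which turns MuvB into an activator, rose by 1.87 ± 0.24 (adjusted p = 0.0107; 0.0826 without the pairing), from 3.60, 2.68 and 5.22 CPM to 20.4, 6.63 and 18.4 CPM. Lin54, the MuvB subunit that contacts CHR elements, was at 16.7, 13.1 and 15 CPM untreated and 35.9, 32.2 and 33.5 CPM treated. The libraries within each group were close, and Lin54 rose by 1.17 ± 0.10 (adjusted p = 0.00432), also without the pairing (0.00339). Rbl1 (p107), a pocket protein that represses E2F genes, rose by 0.95 ± 0.12 (adjusted p = 0.0096; 0.00666 without the pairing), from 31.7, 36.5 and 36.5 CPM to 75.9, 60.7 and 67.8 CPM. Lin54 and Rbl1 were the 2 of these 23 genes that passed without the pairing, where 2.01% of all genes rose.

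Among 13 CDK inhibitors and G2/M brakes 2 rose and 2 fell, where 8.61% of all genes rose and 8.02% fell. Counts this small are not read as a result about the list. Cdkn2b (p15), an inhibitor of CDK4 and CDK6, fell by 0.70 (adjusted p = 0.0149), from 232, 156 and 191 CPM to 129, 111 and 116 CPM, without overlap. Cdkn1a (p21), named after its values were seen because it was the other gene that fell, had a change of -0.90 (adjusted p = 0.032). Pkmyt1 and Chek1, kinases that hold CDK1 back, rose by 0.69 and 0.90. None of these 4 passed without the pairing (adjusted p = 0.149 to 0.407).

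The second comparison set osteogenic against untreated adipogenic progenitors, fitted over all 9 libraries. No pairing was used, since over 15098 genes osteogenic libraries did not track the adipogenic ones of the same number (correlations of deviations from -0.0959 to 0.0616). Over the 46 members these correlations were more spread, from -0.308 to 0.469. Osteogenic and adipogenic libraries of different numbers spread alike, from -0.499 to 0.449, so these values do not set the same-numbered ones apart. A correlation over genes also does not see a shift shared by all members. Replicate 6 had the highest level for 43 members in untreated, 34 in treated and 44 in osteogenic libraries. Whether libraries of one number share something across groups was not tested. Of the 46 genes 0 rose and 0 fell in edgeR's test, while 1.98% of all 15098 genes rose and 3.19% fell. A positive difference was found for 41 members and for 7340 of the 15098 genes. The members moved together across libraries, so their signs are not 46 separate observations. An unadjusted p under 0.05 was reached by 10 members on the higher side (10.5% of all genes) and 1 on the lower (12.8%). The median was 0.73 on the log2 scale (1.65-fold, all genes -0.02). DESeq2, in which 6.25% of all genes rose and 8.49% fell, called 3 members higher (Bub1b, adjusted p = 0.0127, Cenpf, 0.00835, and Ube2c, 0.0315) and 1 lower (Pttg1, 0.00761), and limma-voom called 0. The summed level was 827, 1190 and 1582 CPM in osteogenic replicates 4, 5 and 6, so that replicate 4 lay within the untreated range and replicates 5 and 6 above it. Replicate 6 was highest for 44 members and replicate 4 lowest for 43.

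Libraries of both groups were apart for 7 members, 6 higher in osteogenic cells (Ccna2, Bub1b, Mad2l1, Cenpf, Ect2 and Ube2c) and 1 lower (Pttg1). Of all genes 15% were higher and 15.9% lower in this sense, so the 6 of 46 higher lie near that share and the 1 of 46 lower is below it. Cenpf had the largest difference, with 18.5, 34.9 and 41.7 CPM in osteogenic libraries against at most 14.7 in untreated ones (1.74 ± 0.52, adjusted p = 0.0959). Nusap1 followed, with 7.65, 17.2 and 18.7 CPM against 4.56, 3.67 and 10.0 (1.25 ± 0.51, adjusted p = 0.189). Ube2c had 15.5, 25.4 and 31.2 CPM (1.20 ± 0.40, adjusted p = 0.123), its lowest library only just above the highest untreated one. Top2a (89.9, 120 and 151 CPM) and Mki67 (36.2, 64.1 and 74.8 CPM) overlapped with the untreated libraries, with differences of 0.86 ± 0.48 and 0.92 ± 0.50.

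Cdk1 was at 33.1, 37.2 and 46.8 CPM in osteogenic libraries, inside the untreated range, and its difference was 0.08 ± 0.42 (adjusted p = 0.929). Leaving out 1 library moved that difference between -0.16 and 0.62, so it does not set Cdk1 apart from the other members. On the negative side were 5 members: Cenpk at -0.01, Spc25 at -0.08, Cdca5 at -0.27, Kif18b at -0.36 and Pttg1 at -1.08 on the log2 scale. The first 4 of these had SEs between 0.19 and 0.47, larger than the differences themselves, and overlapping libraries. Pttg1 was at 16.2, 19.6 and 15.6 CPM against 26.7, 42.9 and 39.3 CPM, below every untreated library (-1.08 ± 0.29, adjusted p = 0.0696). Its call depended on the fit: it passed with DESeq2, with the replicate number as a block (adjusted p = 0.0246) and with only the 6 libraries compared (0.0497). Of 71 other mitosis genes 1 rose, Hjurp, the chaperone that loads CENP-A at centromeres, by 0.63 (adjusted p = 0.0276), and 0 fell. Of 10 G1 genes 1 fell, Ccnd2 (cyclin D2), by 1.03 (0.0292), and 0 rose. Among all genes 1.98% rose and 3.19% fell. S phase genes had a median of -0.06, with 0 of 29 passing. At an unadjusted p under 0.05 there were 3 higher and 1 lower, beside 10.5% and 12.8% of all genes.

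The third comparison set osteogenic against IFNγ-treated adipogenic progenitors, again over all 9 libraries. It shares the treated libraries with the first comparison and the osteogenic ones with the second. All 46 members had a negative difference, as did 7877 of the 15098 genes. The median of the members was -0.56 on the log2 scale (0.68 times, all genes -0.03). In edgeR's test 2 members fell, Cdca5 and Pttg1, and 0 rose. Among all genes 9.2% fell and 7.52% rose, so 2 of 46 is below the background share. An unadjusted p under 0.05 was reached by 8 members, all lower (17.2% of all genes), and by 0 on the higher side (14.8%).

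Cdca5, sororin, was at 3.39, 6.43 and 7.45 CPM in osteogenic libraries against 22.4, 9.95 and 21.6 CPM with IFNγ, a fall of 1.64 ± 0.43 on the log2 scale (adjusted p = 0.0348), with no overlap. Pttg1 was lower than in all treated libraries, by 1.08 ± 0.29 (adjusted p = 0.0363), as far as from untreated ones. Spc25 and Kif18b also did not overlap, but neither passed (adjusted p = 0.256 and 0.213). Such separation was seen for 4 members to the lower side and 0 to the higher, and for 19.7% and 18.8% of all genes. Ube2c (-0.00 ± 0.39) and Bub1b (-0.02 ± 0.31) differed least from the treated cells, and SEs of that size leave differences in either direction possible. Neither lower call held in every fit. Both were lost when treated replicate 6 or any osteogenic library was left out. Without treated replicate 4 Pttg1 alone fell (Cdca5 adjusted p = 0.0834), and without treated replicate 5 Pttg1 did not pass (0.0897) while 4 members did.

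Outside the members, S phase genes were lower in osteogenic than in treated cells for 9 of 29 (median -0.87), where 9.2% of all genes fell. Among them was Cdt1, a licensing factor that fell by 1.61 (adjusted p = 0.00591). Of 71 other mitosis genes 1 fell, Zwint of the outer kinetochore, and 0 rose, both below the shares of all genes (9.2% and 7.52%). Lin54 was at 12.2, 13.1 and 13.7 CPM in osteogenic libraries and fell by 1.38 ± 0.14 (adjusted p = 0.000575) against treated ones, and Rbl1 fell by 0.61 (0.0166). Cdkn2b was higher by 1.21 (adjusted p = 0.00629), at 230, 248 and 349 CPM.

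**Figure D5:**
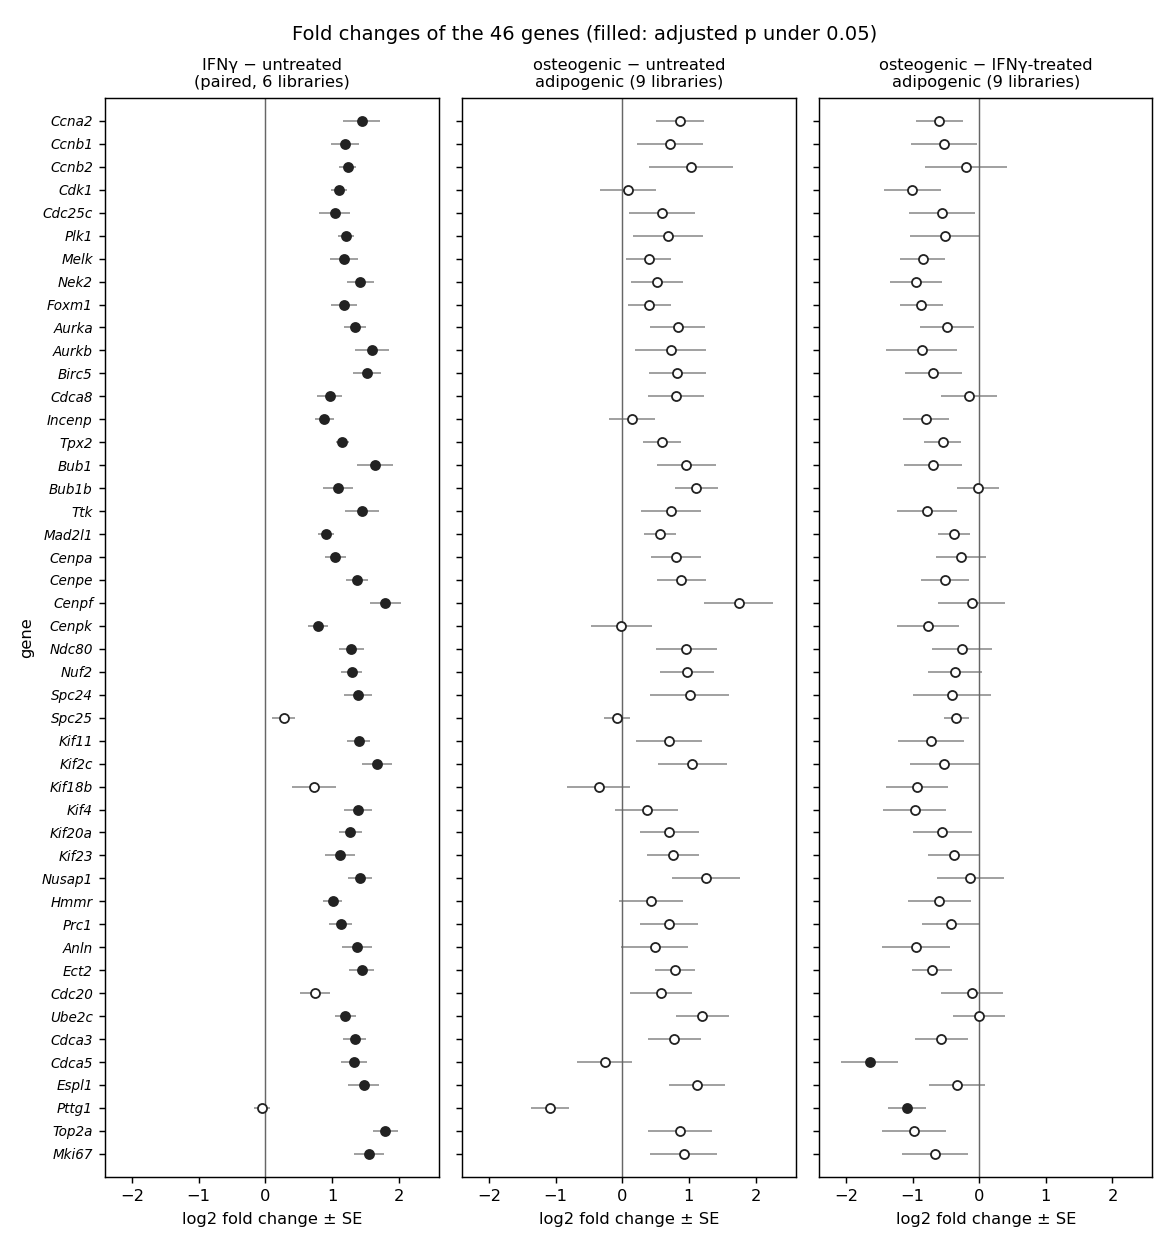
Log2 fold change with its SE (horizontal axis) of each of the 46 genes in the 3 comparisons; filled points have an adjusted p under 0.05 in edgeR's test. In the paired IFNγ comparison 42 points are filled, in osteogenic against untreated 0 and in osteogenic against IFNγ-treated 2 (Cdca5 and Pttg1), with wider error bars in the unpaired fits.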

How the data were processed

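Poly(A) RNA of 9 libraries, 3 in each of 3 groups, was sequenced as single reads after a directional library preparation, per the labels' protocols. The authors deposited 1 table of raw read counts per gene, whole numbers without normalization, with each gene's exonic length. Per the submitters' processing notes, bedtools 2.11, CASAVA 1.8.0 and mm9 (a mouse genome build) were used. Which aligner and counter made the counts, and whether strand was used, is not given in the sources used here. Groups were taken from the sample titles and the design text. Libraries of one group differed beyond sampling noise (chi-square per degree of freedom 64.4 to 227), so none was counted as a repeat of another.

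The main tool was edgeR 4.0.16 (in R 4.3.3), run on these counts with filterByExpr by group, TMM scaling, the robust quasi-likelihood F test (two-sided) and Benjamini-Hochberg adjustment over all genes tested, with a threshold of 0.05. CPM values use TMM-scaled totals. IFNγ against untreated was fitted on the 6 adipogenic libraries (14705 genes) with the replicate number as a block, since deviations of same-numbered libraries correlated at 0.786 to 0.797. The other 2 comparisons used all 9 libraries (15098 genes) and a group term. Alternatives were limma-voom (limma 3.58.1), DESeq2 1.42.0, other scalings, no filter beyond 1 count, other blocks, and leaving out each library. Promoter windows are from RefSeq, GRCm38.p6, matched by gene symbol, and exon overlaps from GENCODE M21, matched by gene identifier. Of 46 members, 38 had a window. No mm9 genome was used here, so no position in that build is given.

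The 46 genes and all lists were chosen with earlier results of these data known, so no p-value is given for a list and no list is independent support. Values by library are given for genes set by role, and for those with the 2 largest or 2 smallest changes or a sign opposite to most in a comparison. From other lists, up to 3 genes with the smallest adjusted p and at least 1 CPM in the higher group are named, and any other gene named for being an exception was picked after its values were seen. Floors of 3 counts per library cover counting error alone, as PCR copies cannot be told from separate molecules here.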

Additional observations from a re-analysis of the deposited data

How the results depend on the processing

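With IFNγ, 42 of the 46 genes rose in the paired fit. The number was 43 in DESeq2 (10.4% of all genes rose), 42 by limma-voom (9.11%), 42 under either other scaling, 41 when no filter beyond 1 count was applied, and 28 with the block set within a fit of all 9 libraries (6.53%). With no replicate block it was 1 over all 9 libraries (2.01%) and 0 over the 6 compared (1.15%), where 34 members and 7.34% of all genes were higher at an unadjusted p under 0.05, and leaving out 1 library gave 1 to 43. The sign of Pttg1 with IFNγ turned on leaving out replicate 4 or 6 of either group, within a range of -0.18 to 0.043 on the log2 scale over the 6 fits.

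For osteogenic against untreated cells, 0 members higher became 3 with DESeq2 (6.25% of all genes) and 1 (Cenpe, adjusted p = 0.0424) with the replicate block (3.49%). A count of 0 lower became 1 with DESeq2 (8.49% of all genes) and 1 with the block (4.75%). It also became 1 with only the 6 libraries compared (2.24%), and each time this was Pttg1. For osteogenic against treated cells, 2 lower became 1 with limma-voom (8.5% of all genes) and 1 with only the 6 libraries (8.52%). Leaving out 1 library gave 0 to 4 lower, where 1312 to 1979 of all genes were called in either direction. The block gave 3 lower in this comparison (11.3% of all genes), which are Cdk1, Cdca5 and Pttg1. The labels tie no osteogenic library to an adipogenic one, so whether the shared number is a pairing is not known. The cause of these changes was not tested.

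Members near 0 changed sign (log2 values). In osteogenic against untreated cells Cenpk reached 0.10 with limma-voom and 0.13 with the replicate block, and Cdk1 -0.043 with library totals. Leaving out 1 library at a time moved Cenpk between -0.34 and 0.43, Cdk1 between -0.16 and 0.62, Spc25 between -0.22 and 0.14, Kif18b between -0.73 and 0.10, Cdca5 between -0.50 and 0.051 and Anln between -0.0055 and 0.90. In osteogenic against treated cells Ube2c reached 0.0050 with limma-voom, 0.0016 with DESeq2, 0.058 with upper-quartile scaling, 0.012 with the replicate block and 0.0062 with only the 6 libraries, and Bub1b 0.046 with upper-quartile scaling. Leaving out 1 library moved Ube2c between -0.25 and 0.23, Bub1b between -0.23 and 0.22, Cenpa between -0.50 and 0.10 and Cdc20 between -0.57 and 0.24. The lowest count of any member in any library was 70.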
